A study of Mus musculus with 6 samples.

Results

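Genes for the extracellular matrix, for the enzymes that cut it and for the integrin receptors that bind it were followed in fully grown mouse oocytes deleted for Lsd1. They were chosen by gene symbol alone: collagens (Col), laminins (Lam), integrin subunits with a numbered symbol (Itga, Itgb) and Itgav, fibulins, fibrillins, latent TGF-beta binding proteins (Ltbp), Smoc, fibronectin (Fn1), decorin (Dcn), lumican (Lum), biglycan (Bgn), periostin (Postn), thrombospondins (Thbs), Sparc, the secreted metalloproteases Adamts and Mmp, and the inhibitors Timp. The pattern found 150 of the 23284 symbols in the files. Of these, 5 encode neither a matrix protein nor an integrin: the ceramide transfer protein Col4a3bp and the proteins Itgb1bp1, Itgb1bp2, Itgb1bp3 and Itgb3bp, whose symbols only begin like an integrin's. They were counted with the members and are described apart. Integrin subunits with a lettered symbol, such as Itgal and Itgam, fall outside the pattern.

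The Lsd1 KO group (3 samples) and the Control group (3 samples) came from females of mixed C57BL/6-129 background aged 4 to 6 weeks, all given 5 IU of gonadotrophin from pregnant mare serum 48 hours earlier. Each sample held 100 oocytes at the germinal vesicle stage, when the oocyte rests in prophase of the first meiotic division, freed from antral follicles by puncture. The sources used here do not give what drove the deletion, which alleles the Control females carried or how many females stood behind each sample. The comparison asks how loss of Lsd1 (Kdm1a, a histone demethylase) changes the oocyte's transcripts.

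The extracellular matrix is a network of secreted proteins. Collagens assemble from chains into fibrils or sheets, laminins are trimers of an alpha, a beta and a gamma chain that form the scaffold of basement membranes, and matricellular proteins such as thrombospondins sit in the matrix and modulate cell behaviour more than they bear load. Integrins are receptors made of 1 alpha and 1 beta subunit that link this matrix to the cytoskeleton. In the ovary most matrix is laid down by follicle and stromal cells, while the oocyte is wrapped in its own coat, the zona pellucida, and carries integrins on its surface, among them the pair of Itga6 and Itgb1.

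Total counts ran from 10735422 to 13035045 per library. Kdm1a had 47, 31 and 36 counts in the Lsd1 KO libraries, against 799, 962 and 492 counts in the Control libraries, as the labels call for. The 12 oocyte markers were all present and summed to 34100 to 38500 CPM (counts scaled per 1000000 after TMM scaling) in Lsd1 KO libraries and 22800 to 27100 CPM in Control libraries. Most of this gap came from Gdf9, with a mean of 15558 CPM in Lsd1 KO, against 6057 CPM in Control. By the test described below Gdf9 and Oosp1 were higher in Lsd1 KO, Mos was lower and 9 did not pass. The median log2 fold change of the 12 markers was -0.09. On principal components of all genes tested, Lsd1 KO replicate 2 stood apart on component 3 (-53.7, the others -8.53 to 28.7) and Control replicate 3 on component 2 (-54.6, the others -4.46 to 26.9). Below, levels are CPM in replicates 1, 2 and 3 in that order, means carry the SD over the 3 libraries of a group, and fold changes are log2 of Lsd1 KO over Control ± SE. Adjusted p is from edgeR's quasi-likelihood test, by the Benjamini-Hochberg method across the 12935 genes that had enough counts, and a gene passed below 0.05. In bulk samples a change in the number of cells of a type and a change in RNA per cell cannot be told apart.

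Matrix and integrin genes changed in both directions, with more rises than falls. Of the 150 members, 76 had enough counts to be tested, and of these 15 were higher in Lsd1 KO (19.7%), 8 were lower (10.5%) and 53 did not pass. Over all genes tested, 21.3% passed, 11.0% higher and 10.3% lower, so that the share of falls lay near the background. The median log2 fold change was 0.33 over the tested members and -0.01 over all genes tested. The Lsd1 KO and Control libraries did not overlap for 37 of the 76 tested members (48.7%), 26 with Lsd1 KO above and 11 with Lsd1 KO below, where 38.7% of all genes tested did not overlap, 19.5% with Lsd1 KO above and 19.1% below. Without Lsd1 KO replicate 2 the number higher was 23, which takes in Col17a1, Fbn1, Itga2 and Mmp13, not tested with all libraries. Only 5 members were lower when Lsd1 KO replicate 3 or Control replicate 2 was left out. Among members with at least 10 CPM in 3 libraries, 5 were higher and 6 lower, so that the excess of rises lay in less abundant members. The summed level of all 150 members was 2408, 2313 and 2229 CPM in Lsd1 KO, against 2290, 2422 and 2598 CPM in Control, so that the groups overlapped in the total.

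**Figure D1:**
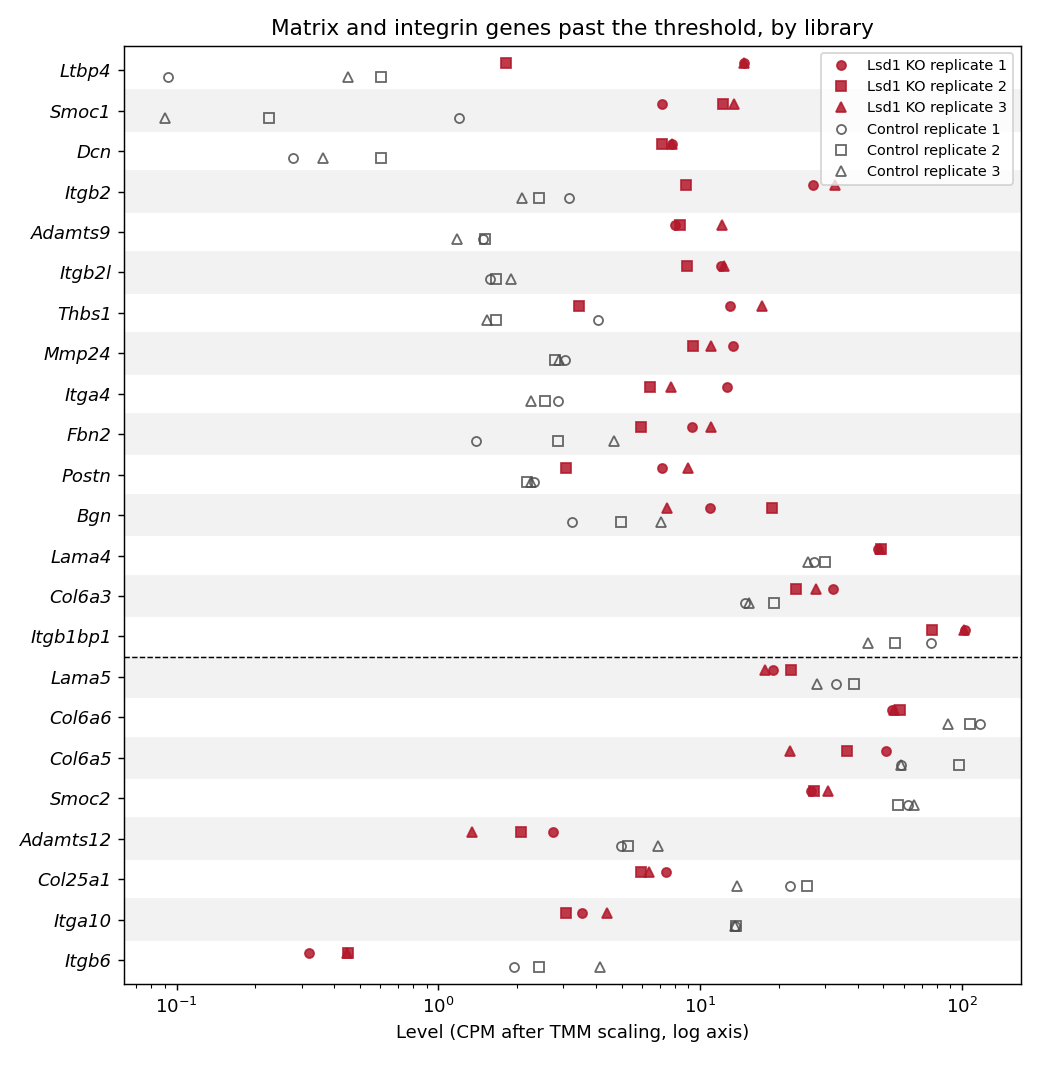
Level of the 23 members past the threshold in each library, in CPM on a log axis, with filled red symbols for Lsd1 KO above open grey symbols for Control in each row and 1 symbol shape per replicate number; genes above the dashed line were higher in Lsd1 KO. Only Thbs1 overlaps between the groups, and for Ltbp4 and Itgb2 the Lsd1 KO square (replicate 2) lies well below the other Lsd1 KO libraries.

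The start regions of some of these genes were at hand and are shown to set genes that rose beside genes that fell. The RefSeq promoter table (build GRCm38.p6) held 106 of the 150 member symbols, 9 of those higher and 7 of those lower in Lsd1 KO. The 250 bases before the start are given below, 5′ to 3′ on the gene's strand, with each CG dinucleotide in capitals, for a pair that rose, one rich in CG and one poor in it, and for a gene that fell. They were chosen after their CG counts were seen. Adamts9 (chr6:92943535-92943784, minus strand) and Itgb2l (chr16:96443615-96443864, minus strand) rose. Col25a1 (chr3:130180595-130180844, plus strand) fell.
Adamts9: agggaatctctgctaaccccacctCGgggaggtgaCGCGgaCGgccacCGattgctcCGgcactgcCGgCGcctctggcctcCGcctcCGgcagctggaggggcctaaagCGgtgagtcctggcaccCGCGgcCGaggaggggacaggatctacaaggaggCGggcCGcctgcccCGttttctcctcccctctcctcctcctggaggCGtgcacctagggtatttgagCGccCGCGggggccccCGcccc
Itgb2l: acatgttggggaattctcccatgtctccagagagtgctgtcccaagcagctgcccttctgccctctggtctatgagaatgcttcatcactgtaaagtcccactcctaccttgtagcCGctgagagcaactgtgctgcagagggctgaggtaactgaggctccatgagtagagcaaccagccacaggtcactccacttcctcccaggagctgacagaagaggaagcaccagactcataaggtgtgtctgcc
Col25a1: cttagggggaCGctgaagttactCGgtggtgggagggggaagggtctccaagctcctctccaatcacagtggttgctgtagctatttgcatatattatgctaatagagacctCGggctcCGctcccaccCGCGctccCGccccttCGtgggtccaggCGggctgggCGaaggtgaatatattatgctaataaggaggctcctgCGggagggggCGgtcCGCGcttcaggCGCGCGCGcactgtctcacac
The Adamts9 stretch holds 22 CG dinucleotides and that of Itgb2l holds 1, while the Col25a1 stretch holds 18. CG-rich starts thus occurred on both sides. Counting every listed start, the median was 11 over 12 promoters of members higher in Lsd1 KO, 9 over 8 promoters of members lower, 10 over the 121 promoters of all members and 6 over the 32851 promoters in the table. The motif GGGCGG, read on both strands, was in 7 of the 12 and 4 of the 8 promoters, in 47.1% of all member promoters and in 32.7% of the table. TATAAA, on both strands, was in 1 and 0 of them and in 12.4% of the table, and TGANTCA, on both strands, was in none of them and in 6.75% of the table. The 7 promoters with GGGCGG take in several starts of the same gene, Ltbp4. All these matches describe the letters only, and the motifs do not contain one another.

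Of the 3 small leucine-rich proteoglycans that the pattern takes in, Dcn and Bgn rose, and Lum had too few counts to be tested. Relatives outside the pattern did not all share this: Podn rose, while Prelp, Omd and Ogn did not pass, with log2 fold changes of -0.37 ± 0.19, -0.63 ± 0.24 and -0.24 ± 0.82. Dcn encodes decorin, which binds collagen fibrils and TGF-beta, and lies on mm9 chromosome 10 from 96942245 to 96980777. Its level was 7.78, 7.13 and 7.81 CPM in Lsd1 KO, against 0.277, 0.603 and 0.361 CPM in Control. All Lsd1 KO libraries lay close together and far above all Control libraries (log2 4.14 ± 0.48, adjusted p = 1.92e-04), from 263 counts in Lsd1 KO and 15 in Control. Bgn, the related biglycan, was at 10.9, 18.8 and 7.45 CPM in Lsd1 KO, against 3.24, 4.97 and 7.05 CPM in Control (log2 1.28 ± 0.40, adjusted p = 0.0396). The Bgn groups nearly touched in their replicates 3. The Bgn call needed each of Lsd1 KO replicates 1 and 2 and Control replicates 1 and 2, and its adjusted p reached 0.181 when one of them was left out.

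The paired genes Smoc1 and Smoc2, which encode secreted calcium-binding relatives of Sparc, moved in opposite directions. Smoc1 (mm9 chromosome 12, 82127795 to 82287401) was at 7.14, 12.2 and 13.5 CPM in Lsd1 KO, against 1.20, 0.226 and 0.0903 CPM in Control. Its Lsd1 KO libraries were all several times the highest Control library (log2 4.44 ± 0.65, adjusted p = 8.78e-04). Smoc2 (mm9 chromosome 17, 14416513 to 14541797) was at 26.5, 27.1 and 30.7 CPM in Lsd1 KO, against 62.2, 56.8 and 65.5 CPM in Control. The Smoc2 libraries were tight within each group and apart between them (log2 -1.13 ± 0.18, adjusted p = 0.00142). Per kilobase of exon, where genes can be set side by side, the mean level of Smoc1 was 3.12 CPM in Lsd1 KO, against 0.145 CPM in Control, and that of Smoc2 was 9.81 CPM in Lsd1 KO, against 21.4 CPM in Control. Smoc2 therefore stayed the more abundant of the pair in both groups.

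Among the other adhesive and matricellular genes, Thbs1 and Postn rose and Sparc, Fn1 and Thbs4 did not pass. Thbs1 encodes thrombospondin-1, which activates latent TGF-beta and restrains blood vessel growth. It was at 12.99, 3.43 and 17.1 CPM in Lsd1 KO, against 4.07, 1.66 and 1.54 CPM in Control. Lsd1 KO replicate 2 fell within the Control range, and the other Lsd1 KO libraries lay above it (log2 2.21 ± 0.57, adjusted p = 0.0158). The Thbs1 call needed Lsd1 KO replicate 3 and Control replicate 2 (adjusted p as high as 0.0721 when either was left out), and its log2 fold change was 2.62 without Lsd1 KO replicate 2. Postn, the fibroblast protein periostin, was at 7.14, 3.07 and 8.98 CPM in Lsd1 KO, against 2.31, 2.18 and 2.26 CPM in Control (log2 1.502 ± 0.453, adjusted p = 0.0329). Of the fits with 1 library left out, Postn passed only the one without Lsd1 KO replicate 2 (adjusted p up to 0.139 without any of the others). Fn1, the gene of fibronectin, was at 20.0, 14.6 and 16.2 CPM in Lsd1 KO, against 10.9, 11.2 and 13.8 CPM in Control. Its groups did not overlap, but the difference did not pass (log2 0.50 ± 0.25, adjusted p = 0.184).

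In the family of elastic fibre and latent TGF-beta binding proteins, all 7 tested members had a log2 fold change above 0, and Ltbp4 and Fbn2 passed. Over all genes tested, 6364 of 12935 had a log2 fold change above 0. The share of the family that passed was 28.6%, beside 21.3% of all genes tested. Ltbp4 (mm9 chromosome 7, 28090155 to 28122711) tethers latent TGF-beta to microfibrils and helps elastic fibres form. It was at 14.7, 1.804 and 14.6 CPM in Lsd1 KO, against 0.0925, 0.603 and 0.452 CPM in Control. Lsd1 KO replicate 2 was again far below the other Lsd1 KO libraries but above every Control library (log2 4.69 ± 0.79, adjusted p = 0.00199). The limma-voom test did not call Ltbp4 (adjusted p = 0.0528). Fbn2, which encodes the microfibril protein fibrillin-2, was at 9.30, 5.95 and 10.95 CPM in Lsd1 KO, against 1.39, 2.86 and 4.70 CPM in Control. These groups did not overlap (log2 1.55 ± 0.45, adjusted p = 0.0285), but the call needed each of Lsd1 KO replicates 1 and 3 and Control replicates 1 and 2 (adjusted p as high as 0.0928 when one was left out). Ltbp1 and Fbln5 had log2 fold changes of 1.93 ± 0.68 and 1.48 ± 0.70 and did not pass (adjusted p = 0.0614 and 0.152).

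**Figure D2:**
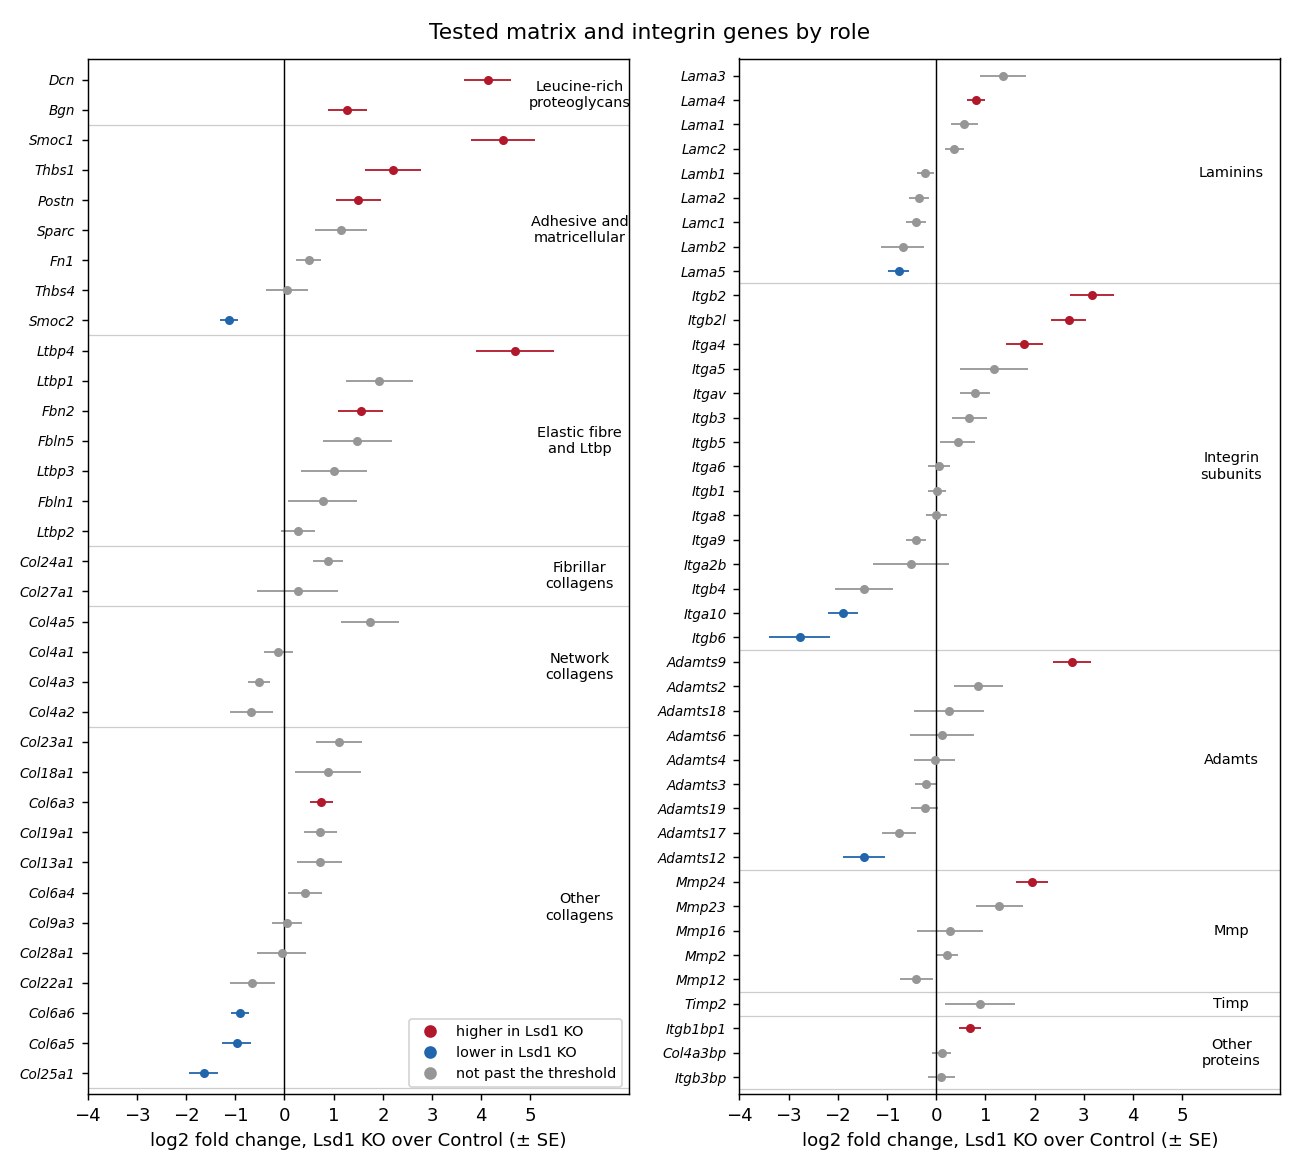
Log2 fold change of Lsd1 KO over Control (points) with its SE (bars) for the 76 tested members, grouped by role, with members past the threshold in red (higher in Lsd1 KO) or blue (lower). Smoc1, Ltbp4 and Dcn lie above 4, all points of the elastic fibre and Ltbp group lie right of 0, and the laminins and integrin subunits spread to both sides.

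Collagens were mostly scarce in these oocytes. Of 43 collagen genes 18 could be tested, with 1 higher, 3 lower and 14 that did not pass. The share of collagens that passed was 22.2%, near the 21.3% of all genes tested. The classical fibril collagens were near 0: Col1a1 had 1, 2 and 6 counts in Lsd1 KO and 0, 1 and 7 counts in Control, Col1a2 had 6, 1 and 21 counts in Lsd1 KO and 0, 0 and 1 in Control, and Col3a1 had 10, 13 and 2 counts in Lsd1 KO and none in Control. Among the 4 tested network collagens edgeR called 0. At an unadjusted p under 0.05 there were 2 (Col4a3 and Col4a5), the DESeq2 Wald test called 1 of them (Col4a5) and limma-voom 0, and Col4a5 had a log2 fold change of 1.73 ± 0.59. The basement membrane chains Col4a1 and Col4a2, which share a start region on opposite strands, averaged 12.2 ± 3.32 and 10.1 ± 4.88 CPM in Lsd1 KO, against 13.3 ± 2.45 and 16.1 ± 8.09 CPM in Control. For Col4a1 and Col4a2 the groups overlapped.

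Of the 6 collagen VI chains in the files, Col6a3 rose, Col6a5 and Col6a6 fell, Col6a4 did not pass and Col6a1 and Col6a2 were not tested. Collagen VI forms beaded filaments next to basement membranes from the chains of Col6a1 and Col6a2 with one more chain, for which Col6a3, Col6a4, Col6a5 or Col6a6 can stand. Col6a3 was at 32.1, 23.2 and 27.6 CPM in Lsd1 KO, against 14.8, 19.1 and 15.4 CPM in Control (log2 0.75 ± 0.23, adjusted p = 0.0326). Col6a5 went the other way, at 51.2, 36.3 and 21.9 CPM in Lsd1 KO, against 58.5, 97.5 and 58.2 CPM in Control (log2 -0.97 ± 0.30, adjusted p = 0.0351). Col6a6 was at 54.1, 57.9 and 54.8 CPM in Lsd1 KO, against 117, 107 and 88.4 CPM in Control, again with no overlap (log2 -0.90 ± 0.18, adjusted p = 0.00412). Col6a4 overlapped between the groups and did not pass, at 15.6, 30.9 and 22.0 CPM in Lsd1 KO, against 9.25, 25.8 and 16.1 CPM in Control. The obligate partners were almost unread: Col6a1 had 8, 3 and 14 counts in Lsd1 KO and 4, 1 and 0 in Control, and Col6a2 had 5, 0 and 11 counts in Lsd1 KO and none in Control. Col6a5 and Col6a6 lie on mm9 chromosome 9, at 105758400 to 105862974 and 105591747 to 105730415, and share exact runs of 50 bases over 3.48% and 4.30% of their transcripts, so that a small part of their reads could not be told apart. Col6a6 passed in all 6 fits with 1 library left out. The call of Col6a3 needed each of replicates 1 and 3 in both groups (adjusted p as high as 0.130 when one was left out), and that of Col6a5 needed Lsd1 KO replicates 2 and 3 and Control replicate 2 (as high as 0.167).

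Col25a1, a transmembrane collagen that is shed from the cell surface and is needed for motor nerve growth in mice, had the largest fall of the 18 tested collagens. It was at 7.38, 5.95 and 6.37 CPM in Lsd1 KO, against 22.0, 25.5 and 13.8 CPM in Control. The Control libraries were spread but all above Lsd1 KO (log2 -1.64 ± 0.29, adjusted p = 0.00273). The gene spans mm9 chromosome 3 from 129883809 to 130302795.

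Laminin chains were among the most abundant members. Lamb1, the beta-1 chain, had the highest level per kilobase of exon of all members, with a mean of 61.8 CPM in Lsd1 KO, against 72.2 CPM in Control, and did not pass (log2 -0.22 ± 0.17, adjusted p = 0.386). Of 9 tested laminins 1 rose and 1 fell, a share of 22.2%, near the 21.3% of all genes tested. Both were alpha chains, which carry the sites that integrins bind. The alpha chains Lama1, Lama2 and Lama3 were also tested and did not pass. Lama4, the alpha-4 chain typical of vessel basement membranes, was at 47.7, 49.0 and 48.6 CPM in Lsd1 KO, against 27.1, 29.9 and 25.7 CPM in Control. The Lsd1 KO libraries barely differed from each other (log2 0.81 ± 0.18, adjusted p = 0.00755). Lama5, the alpha-5 chain, was at 18.9, 22.1 and 17.6 CPM in Lsd1 KO, against 32.8, 38.7 and 27.9 CPM in Control (log2 -0.76 ± 0.21, adjusted p = 0.0229). Lama4 kept its call with each library left out, while that of Lama5 needed Lsd1 KO replicates 1 and 3 and Control replicates 1 and 2 (adjusted p as high as 0.107 when one was left out). Per kilobase, Lama4 had a mean of 4.01 CPM in Lsd1 KO, against 2.28 CPM in Control, and Lama5 had 1.71 CPM in Lsd1 KO, against 2.91 CPM in Control. The order of these alpha chains was thus reversed between the groups, both of them below Lama2, at 11.97 CPM per kilobase in Lsd1 KO, against 15.3 in Control. The gamma-1 chain Lamc1 (log2 -0.41 ± 0.21) and Lama2 (log2 -0.35 ± 0.20) did not pass.

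The integrins that the oocyte holds in quantity did not pass the test. Per kilobase of exon, the highest integrin levels were those of Itga9, with a mean of 27.5 CPM in Lsd1 KO, against 36.6 CPM in Control, Itgb1, with 21.1 CPM in Lsd1 KO, against 20.9 CPM in Control, and Itga6, with 15.6 CPM in Lsd1 KO, against 15.0 CPM in Control. Itgb1, the beta subunit shared by most matrix-binding integrins, was at 87.0, 85.9 and 86.0 CPM in Lsd1 KO, against 72.6, 77.7 and 106 CPM in Control. The Lsd1 KO libraries sat inside the Control range (log2 0.02 ± 0.19). Itga6, the laminin-binding alpha subunit, was at 158, 159 and 105 CPM in Lsd1 KO, against 105, 143 and 158 CPM in Control (log2 0.06 ± 0.21). Itga9 was at 245, 217 and 172 CPM in Lsd1 KO, against 255, 245 and 346 CPM in Control, and overlapped (log2 -0.41 ± 0.20, adjusted p = 0.158). Itga8 had a log2 fold change of 0.00 ± 0.21. The subunits that pair to bind vitronectin and fibronectin also did not pass, with log2 fold changes of 0.79 ± 0.30 for Itgav, 0.67 ± 0.35 for Itgb3, 0.44 ± 0.36 for Itgb5 and 1.18 ± 0.68 for Itga5. Itgav and Itgb3 each passed in 1 fit with a library left out, Itgav without Control replicate 3 and Itgb3 without Lsd1 KO replicate 3, where their log2 fold changes were 1.03 and 1.06. For these genes the SE leaves room for differences that the test could not call.

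Of the 15 tested integrin subunits 3 rose, 2 fell and 10 did not pass. The share that passed was 33.3%, beside 21.3% of all genes tested. The 5 that passed were all below Itga9, Itgb1 and Itga6 in level per kilobase. Itgb2, the beta subunit of leukocyte integrins, lies on mm9 chromosome 10 from 76992997 to 77028453. It was at 26.9, 8.84 and 32.7 CPM in Lsd1 KO, against 3.14, 2.41 and 2.08 CPM in Control. Every Lsd1 KO library lay above every Control library, with replicate 2 the lowest (log2 3.16 ± 0.45, adjusted p = 7.22e-04), and the log2 fold change was 3.53 without that replicate. Its related gene Itgb2l, on mm9 chromosome 16 from 96643895 to 96665226, was at 12.03, 8.93 and 12.3 CPM in Lsd1 KO, against 1.57, 1.66 and 1.90 CPM in Control (log2 2.69 ± 0.35, adjusted p = 4.26e-04). No exact run of 50 bases was shared between the transcripts of Itgb2 and Itgb2l. Alpha partners of Itgb2, which the pattern leaves out and which were chosen after their values were seen, were low: Itgal had 5.21, 1.98 and 3.95 CPM in Lsd1 KO, against 2.03, 0.979 and 1.26 CPM in Control, and Itgam had 2.24, 0.451 and 1.71 CPM in Lsd1 KO, against 0.925, 0.0753 and 1.26 CPM in Control. Neither Itgal nor Itgam passed (adjusted p = 0.0878 and 0.448). The partners Itgax and Itgad were not tested: Itgax had 35, 0 and 6 counts in Lsd1 KO, against 0, 0 and 1 in Control, and Itgad had 9, 1 and 2 counts in Lsd1 KO, against 1, 1 and 8 in Control. All 4 partners were lowest of the Lsd1 KO libraries in replicate 2.

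Itga4, whose integrins bind fibronectin and the adhesion molecule VCAM1, was at 12.6, 6.40 and 7.72 CPM in Lsd1 KO, against 2.87, 2.56 and 2.26 CPM in Control. The Lsd1 KO libraries were all above the Control libraries (log2 1.79 ± 0.38, adjusted p = 0.00660). Itga10, a collagen-binding subunit, fell to 3.53, 3.07 and 4.40 CPM in Lsd1 KO, against 13.6, 13.7 and 13.5 CPM in Control (log2 -1.89 ± 0.30, adjusted p = 0.00149). The value of Itga10 is uncertain, because part of its annotated transcript sequence is not unique to it and reads could have been split. Itgb6, which pairs with Itgav, averaged 0.407 ± 0.0746 CPM in Lsd1 KO, against 2.84 ± 1.17 CPM in Control (log2 -2.77 ± 0.63, adjusted p = 0.00875), from 14 counts in Lsd1 KO and 99 in Control. Itgb4, the partner of Itga6 in hemidesmosomes, was at 6.65, 1.44 and 1.26 CPM in Lsd1 KO, against 8.42, 5.27 and 12.5 CPM in Control. Lsd1 KO replicate 1 overlapped Control, and the difference did not pass (log2 -1.47 ± 0.58, adjusted p = 0.0931), but it did pass without that library, at log2 -2.65. Itga2b, the platelet subunit, was below 2 CPM in every library and did not pass (adjusted p = 0.676).

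**Figure D3:**
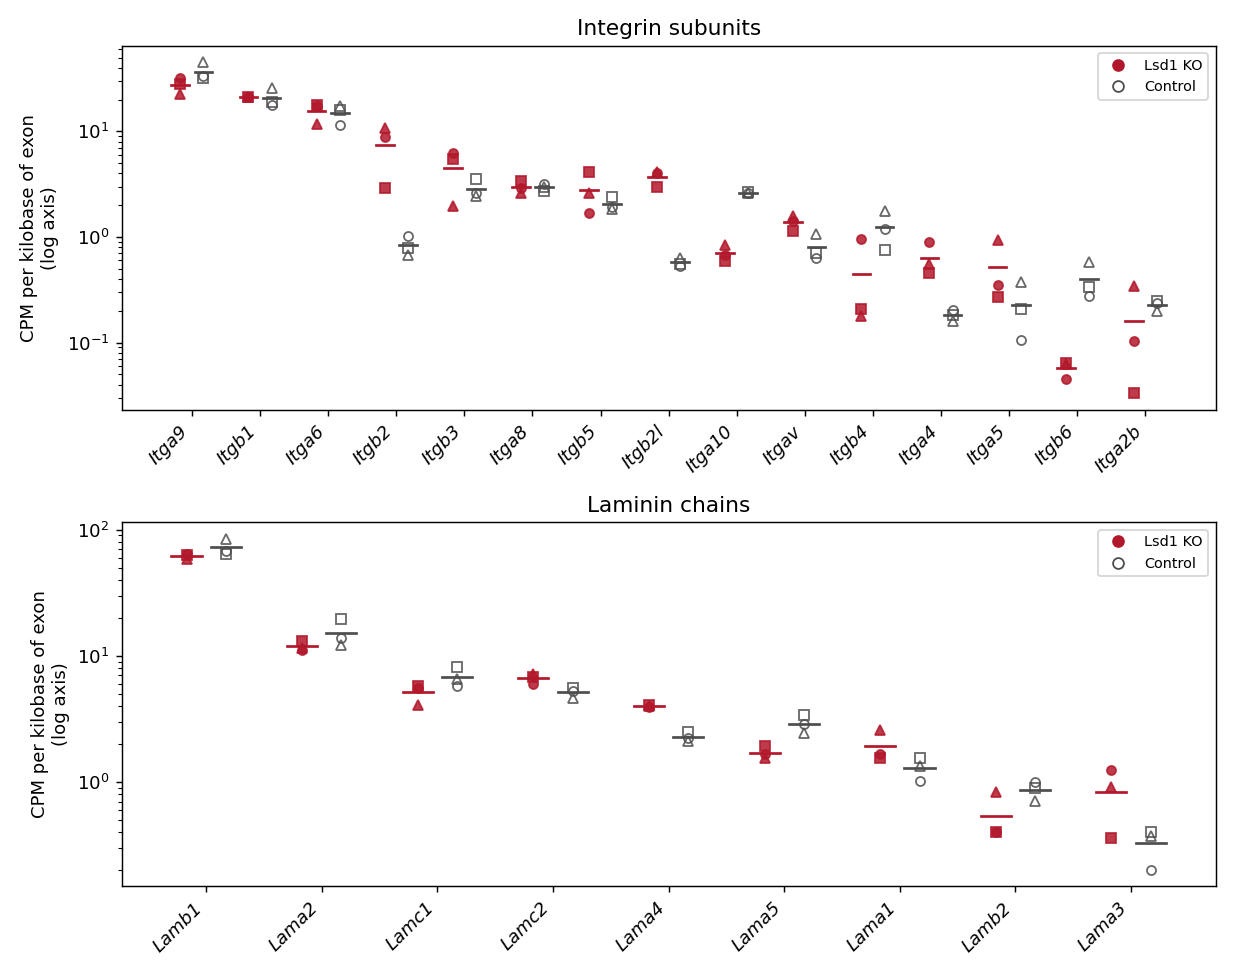
Level per kilobase of exon in each library (symbols, 1 shape per replicate number) and group mean (lines) for the tested integrin subunits and laminin chains, on log axes in order of overall level, with Lsd1 KO (filled red) left of Control (open grey). Itga9, Itgb1 and Itga6 head the integrins with groups that overlap, and Itgb2, Itgb2l and Itga4 stand higher and Itga10 and Itgb6 lower in Lsd1 KO.

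Of 46 Adamts, Mmp and Timp genes, for proteases that cut the matrix and their inhibitors, 15 could be tested, with 2 higher, 1 lower and 12 that did not pass. The share that passed was 20.0%, near the 21.3% of all genes tested. Adamts9, a protease that cleaves versican and aggrecan, was at 8.02, 8.39 and 12.1 CPM in Lsd1 KO, against 1.48, 1.51 and 1.17 CPM in Control. The groups stood well apart (log2 2.77 ± 0.38, adjusted p = 6.33e-04). Its gene lies on mm9 chromosome 6 from 92722693 to 92893486. Mmp24, a membrane-bound metalloprotease known from neural tissue, was at 13.3, 9.38 and 10.95 CPM in Lsd1 KO, against 3.05, 2.79 and 2.89 CPM in Control (log2 1.94 ± 0.32, adjusted p = 0.00184). Adamts12 fell to 2.73, 2.07 and 1.35 CPM in Lsd1 KO, against 4.99, 5.27 and 6.86 CPM in Control (log2 -1.47 ± 0.43, adjusted p = 0.0280). Of the 6 fits with a library left out, Adamts12 passed only the one without Lsd1 KO replicate 1 (adjusted p up to 0.0990). The most abundant protease per kilobase was the gelatinase Mmp2, with a mean of 8.64 CPM over all libraries, and it did not pass, at 20.8, 32.9 and 31.0 CPM in Lsd1 KO, against 22.8, 27.0 and 23.1 CPM in Control (adjusted p = 0.534). Timp2, the one inhibitor tested, overlapped between groups at 5.53, 0.451 and 8.62 CPM in Lsd1 KO, against 2.13, 3.54 and 2.17 CPM in Control.

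Of the symbols that the pattern catches by name alone, Itgb1bp1 rose. It encodes ICAP-1, a cytoplasmic protein that binds the tail of Itgb1 and restrains integrin activation, and was at 102, 76.7 and 102 CPM in Lsd1 KO, against 75.7, 55.5 and 43.7 CPM in Control (log2 0.68 ± 0.22, adjusted p = 0.0450). Its lowest Lsd1 KO library lay just above its highest Control library. Leaving out Lsd1 KO replicate 1 or 3, or Control replicate 2 or 3, ended the call, with an adjusted p as high as 0.135. Asap2, which overlaps it on the opposite strand, was lower, at 14.7 CPM in Lsd1 KO, against 40.4 CPM in Control. Col4a3bp, the second member by level per kilobase, and Itgb3bp, a kinetochore protein, did not pass (adjusted p = 0.720 and 0.811).

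Members below the filter held few reads. Of these 74 genes, 7 had no count in any library and the others had at most 103 counts over all 6. Those named next were chosen after their values were seen. Fbn1, the gene of fibrillin-1, had 42, 8 and 37 counts in Lsd1 KO, against 9, 5 and 2 in Control. Col17a1, the transmembrane collagen of hemidesmosomes, had 25, 9 and 24 counts in Lsd1 KO, against 0, 2 and 0 in Control, and Itga2, a collagen receptor subunit, had 18, 0 and 16 counts in Lsd1 KO, against 1, 0 and 0 in Control. In each of these Lsd1 KO replicate 2 was again the lowest of its group. The collagenase relative Mmp1b went the other way, with 0, 0 and 2 counts in Lsd1 KO, against 25, 15 and 1 in Control. Mmp17, a membrane-anchored metalloprotease, had 7, 2 and 3 counts in Lsd1 KO, against 25, 37 and 8 in Control.

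Lsd1 KO replicate 2 was the lowest of the Lsd1 KO libraries for 11 of the 15 members that were higher (73.3%), against 47.9% of all genes that were higher in Lsd1 KO. Without that library 14 of the 15 remained higher, Bgn being lost, and 9 more passed: Col17a1, Col4a5, Fbln5, Fbn1, Itga2, Lama3, Mmp13, Sparc and Timp2. Of these, Col17a1, Fbn1, Itga2 and Mmp13 had missed the filter with all 6 libraries, so their gain is not particular to that library. With all 6 libraries and no filter they also passed edgeR's test (adjusted p = 0.00346, 0.02845, 0.02852 and 0.00258). Of the members lower in Lsd1 KO, 6 of 8 remained and Adamts12 and Col6a5 did not pass. Sparc, for example, was at 11.9, 3.52 and 11.8 CPM in Lsd1 KO, against 3.61, 1.73 and 6.95 CPM in Control, with a log2 fold change of 1.15 ± 0.54 over all libraries and of 1.51 without Lsd1 KO replicate 2.

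Markers of other cells moved in part with the same libraries. The 14 markers of macrophages and blood cells summed to 167, 28.2 and 170 CPM in Lsd1 KO, against 51.4, 21.7 and 64.4 CPM in Control, with Lsd1 KO replicate 2 low as it was for Itgb2, Ltbp4 and Thbs1. Of these markers 8 were tested and only Cd68, a macrophage lysosomal protein, passed (18.3 ± 10.8 CPM in Lsd1 KO, against 5.05 ± 3.39 CPM in Control, log2 1.86 ± 0.54, adjusted p = 0.0281). All 8 had a log2 fold change above 0 (median 1.78), as did 6364 of the 12935 genes tested. The most abundant of the list were C1qb and Lyz2, and the haemoglobin genes Hba-a1 and Hbb-b1 were at 0 in all libraries. The 18 theca, stroma and smooth muscle markers summed to 304 to 354 CPM in Lsd1 KO, against 239 to 242 CPM in Control, most of it from Myh11, and then from Hsd3b1 in Lsd1 KO and Cnn1 in Control by group mean. Of the 8 tested edgeR called 0, while the DESeq2 Wald test called 2 (Cnn1 and Hsd3b1) and limma-voom 1 (Cnn1). In edgeR 5 had an unadjusted p under 0.05, with Myh11, Cnn1, Hsd3b1 and Vim higher and Ptch1 lower in Lsd1 KO. Of the 8, 6 had a log2 fold change above 0, and those of Ptch1 (-1.31 ± 0.49) and Nr2f2 (-1.15 ± 0.70) were below it. Insl3 was at 0 in all libraries, and Pdgfrb, Des and Tcf21 had 5, 2 and 3 counts in all. The 18 granulosa and cumulus markers summed to 460 to 508 CPM in Lsd1 KO, against 140 to 174 CPM in Control. Of 17 tested, 4 were higher (Cyp19a1, Ptgs2, Gja1 and Inha) and Nr5a2 was lower, a share of 29.4% beside 21.3% of all genes tested. A log2 fold change above 0 was found for 15 of the 17 (median 1.35). Without Cyp19a1, the most abundant before Nr5a2, the groups overlapped, with 108 to 124 CPM left in Control. Much of that Control level was Nr5a2, which went against most of the list (mean 28.7 CPM in Lsd1 KO, against 69.4 CPM in Control). The 11 endothelial markers summed to 108 to 127 CPM in Lsd1 KO, against 77.0 to 97.2 CPM in Control, with Tek higher and Flt1 lower, Pecam1 and Tek the most abundant, and the defining genes Cldn5 and Cdh5 at 0 and 1 counts in all. Lsd1 KO replicate 2 was not low in the granulosa, stroma and endothelial sums as a whole, of which the first is carried by Cyp19a1 and the second by Myh11. Without Cyp19a1 the granulosa sum was 132, 104 and 227 CPM in Lsd1 KO, with replicate 2 the lowest of all 6 libraries. Many single markers, but not all, were also lowest of the Lsd1 KO libraries in replicate 2. In the granulosa list these were Foxl2, Inha, Inhba, Inhbb, Hsd17b1, Fst, Gja1, Gatm, Slc38a3 and Npr2, while Wt1 was level in replicates 1 and 2. In the stroma list they were Cyp17a1, Cyp11a1, Hsd3b1, Nr2f2, Gli1, Pdgfra, Acta2 and Vim, some at few counts. Replicate 2 was the lowest Lsd1 KO library for 36.4% of all genes tested. Gja1 had 29.1, 10.01 and 49.8 CPM in Lsd1 KO, against 5.55, 4.52 and 13.8 CPM in Control. Vim had 13.2, 1.26 and 11.9 CPM in Lsd1 KO, against 4.62, 0.226 and 1.99 CPM in Control. Inha and Hsd3b1 had 12.5 and 9.02 CPM in Lsd1 KO replicate 2, with 19.1 to 51.6 CPM in the other Lsd1 KO libraries. In contrast, replicate 2 was the highest Lsd1 KO library for Cyp19a1, Kitl, Myh11, Cnn1, Ptch1 and Star. It lay between the other Lsd1 KO libraries for Amh, Amhr2, Fshr, Ptgs2 and Nr5a2. The part of these cells in the levels of the matrix genes was not tested.

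**Figure D4:**
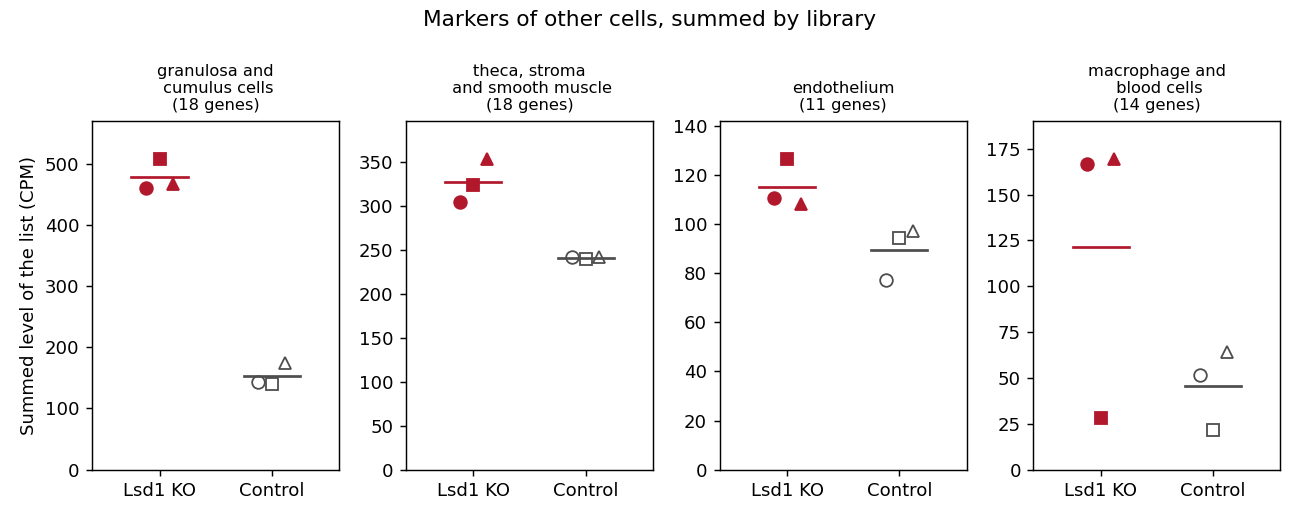
Summed level in CPM of 4 lists of markers of other ovarian or blood cells in each library (symbols, 1 shape per replicate number) with the group mean (line), Lsd1 KO left of Control, on linear axes from 0. In the macrophage and blood list Lsd1 KO replicate 2 (square) lies within the Control range at 28.2 CPM, while the other Lsd1 KO libraries lie at 167 and 170 CPM.

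Other genes of the matrix and of integrin adhesion, taken from 6 lists that do not use the pattern, changed at a share of 27.5% beside 21.3% of all genes tested. Of 157 listed genes 91 were tested, of which 13 were higher and 12 lower. With each library left out in turn 10 of the 13 and 4 of the 12 passed every time. The lower ones that did were Has3, Efna5, Cd9 and Adam12, and the higher ones that did not were Mfap2, Fras1 and Vcan. Leaving out Lsd1 KO replicate 1 left 4 lower, leaving out Lsd1 KO replicate 3 left 5, and leaving out Control replicate 2 or 3 left 7. In basement membrane and elastic fibre partners 3 of 10 were higher and 1 was lower: Npnt, a ligand of integrins (log2 2.96 ± 0.53), the microfibril protein Mfap2 (0.74 ± 0.20) and Fras1 (0.83 ± 0.26) rose, and dystroglycan, Dag1, a laminin receptor, fell (-0.82 ± 0.23). In the hyaluronan and proteoglycan list 4 of 15 were higher and 1 lower. The versican gene Vcan (1.41 ± 0.45), the proteoglycan Podn (2.41 ± 0.49) and the inter-alpha-trypsin inhibitor chains Itih2 (3.78 ± 0.84) and Itih3 (5.03 ± 1.10), which bind hyaluronan, were higher, the last at 1.27 CPM in Lsd1 KO, against 0.0301 CPM in Control. The hyaluronan synthase Has3 fell (-1.29 ± 0.25).

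Enzymes that modify collagen gave 3 higher and 1 lower of 15, a share of 26.7% beside 21.3% of all genes tested. The lysyl hydroxylase Plod2 averaged 7.76 ± 3.20 CPM in Lsd1 KO, against 1.09 ± 0.558 CPM in Control (log2 2.82 ± 0.51), the procollagen protease enhancer Pcolce2 rose by 2.11 ± 0.40 and the prolyl hydroxylase subunit P4ha2 by 2.98 ± 0.67 on the log2 scale. The cross-linking oxidase Loxl2 fell (-0.91 ± 0.26). In the list of other matricellular proteins 1 of 10 passed, and it was Efna5 (-1.41 ± 0.25), a membrane-anchored ephrin that is not itself a matricellular protein. Among other matrix proteases and their inhibitors Reck, a membrane-anchored inhibitor of Mmp enzymes, rose (5.23 ± 0.265 CPM in Lsd1 KO, against 0.497 ± 0.356 CPM in Control, log2 3.35 ± 0.61) and Adam12 fell (-1.04 ± 0.22), out of 12 tested.

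In the integrin adhesion complex list 2 of 29 tested genes were higher (6.9%) and 7 were lower (24.1%). The list holds mostly cytoplasmic proteins, with the membrane proteins Cd47, Cd151, Cd9 and Cd81. Over all genes tested, 11.0% were higher and 10.3% lower. Most of the 7 falls were near the threshold. Without Lsd1 KO replicate 1 or without Control replicate 2 only Cd9 was lower, and Lsd1 KO replicate 3 left out gave 2. The focal adhesion scaffold genes Tln2 (-0.80 ± 0.23), Ilk (-0.88 ± 0.29), Fermt2 (-0.80 ± 0.19), Pxn (-0.69 ± 0.23), Bcar1 (-0.73 ± 0.20) and Crkl (-0.66 ± 0.21) and the tetraspanin Cd9, which the egg needs to fuse with sperm (-0.98 ± 0.21), were lower. The kinase Ptk2b (2.001 ± 0.417) and Parvb, a partner of Ilk (2.24 ± 0.48), were higher and passed with each library left out. Fermt2, which encodes the integrin activator kindlin-2, was the most abundant of those that passed and averaged 123 ± 7.39 CPM in Lsd1 KO, against 214 ± 44.4 CPM in Control. For Cd9 the means were 58.2 ± 6.77 CPM in Lsd1 KO, against 115 ± 30.0 CPM in Control.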

How the data were processed

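Each of the 6 deposited files gives whole-number raw read counts per gene symbol for 1 library. Per the labels, lysed oocytes went straight into NuGEN Ovation amplification and TruSeq paired-end libraries. Tools given in the submitters' processing notes are TopHat2 2.0.7, HTSeq 0.5.3p9 and CASAVA 1.8.2, with the build mm9. The sources used here do not give the annotation, the options or any use of strand in counting.

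Genotype labels set the groups, whose 3 samples the series design calls biological replicates. A low-count filter (edgeR's filterByExpr at 10 counts) passed 12935 genes. After TMM scaling, edgeR 4.0.16 (R 4.3.3) tested each gene by quasi-likelihood, two-sided, and p-values were adjusted across those genes by Benjamini-Hochberg. SEs come from the fold change and its F statistic. Positions and exon lengths are from GENCODE M1 on NCBIM37, the assembly of mm9, which held all 150 members. Promoters are from RefSeq. Principal components were taken from log2 CPM (prior count 2). The test was tried on simulated counts.

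The members, the lists and the tests were chosen with earlier results of these data known. Every member that passed is named, with values per library from 5 CPM in the higher group, and integrin subunits and the members highest per kilobase are named whether or not they passed. Of the other lists every gene that passed is named, where the rule asked for up to 3 a list. The protein sequences that the rule foresaw were not used here. Alternatives were other scalings (DESeq2 size factors, library totals), the DESeq2 1.42.0 Wald test, limma-voom (limma 3.58.1), other filters, a replicate block, each library left out, and an adjusted p under 0.01. Leaving out both libraries that stood apart was chosen after seeing the data.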

Additional observations from a re-analysis of the deposited data

How the results depend on the processing

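None of the 23 called members changed direction under the 14 alternative fits, 14 passed in all 6 fits with a library left out, and 13 passed at 0.05 under every alternative in which they were tested: Dcn, Smoc1, Adamts9, Itgb2, Itgb2l, Itga4, Mmp24, Lama4, Smoc2, Itga10, Itgb6, Col25a1 and Col6a6. With no filter 23 members were higher. With a filter of 10 CPM in 3 libraries 5 members and 3 of the other matrix genes were higher, because fewer genes were tested (34 members). Under that filter 6 members were lower, so that rises did not outnumber falls. It dropped 12 of the 15 members higher in the main fit and 2 of the 8 lower. At an adjusted p under 0.01, 9 members were higher and 5 lower, 4 of the other matrix genes were lower, and 676 genes were higher and 497 lower among all tested. Without both Lsd1 KO replicate 2 and Control replicate 3, 25 members were higher, among them Col17a1, Fbn1, Itga2 and Mmp13, not tested in the main fit. With 1 library left out the members higher numbered 10 to 23 and those lower 5 to 9, the other matrix genes 11 to 15 higher and 4 to 10 lower, and all genes 932 to 1466 higher and 638 to 1346 lower. The DESeq2 Wald test gave 19 and 9 members and limma-voom 12 and 8, with Bgn, Ltbp4, Postn and Thbs1 lost. With the replicate block 12 members were higher, Bgn, Col6a3 and Postn being lost, and 9 lower, Itgb4 being gained. The replicate numbers did not pair the libraries: the correlations of same-numbered deviations from the group mean were -0.029, 0.111 and -0.0211, and of the Lsd1 KO libraries only replicate 2 correlated best with its own number. Of the genes that did not pass, some changed sign. With 1 library left out the log2 fold change ran from -0.124 to 0.263 for Itga6, from -0.118 to 0.123 for Itga8, from -0.115 to 0.185 for Itgb1 and from -0.015 to 0.277 for Col4a3bp. With the replicate block Itga8 was at -0.000814, and without both libraries that stood apart Itga8 was at -0.091 and Itgb5 at -0.021. The cause was not tested. At this depth 74 members, each with at most 103 counts over all libraries, missed the filter and were not tested.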
